A study of Homo sapiens with 18 samples.

Results

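The 10 genes described here encode splicing factors and the kinases that act on them: CLK1, CLK2, CLK4, LUC7L, LUC7L2, LUC7L3, RSRP1, PNISR, SREK1 and RBM39. They were taken by name from the deposited transcript table, where they occupied 169 of 145326 rows and 10 of 32490 gene names. The set was proposed with results of these same samples known, and which values it was selected on is not recorded, so all changes over time are given as a description and not as independent evidence of a change. RNA had been sequenced from spheroidal aggregates of 2 established cell lines, U87mg from a human glioblastoma and DAOY from a human medulloblastoma, each embedded in Matrigel in electrotaxis channels and held there for 24 h before the field. Each line had 3 samples without field (0 h), 3 after 2 h and 3 after 8 h of a direct-current electric field (dcEF) of 250 V/m, and 3 channels were pooled into each sample. The study's methods call the samples biological replicates chosen for the best quality control, and 1 further 8 h DAOY pool had been lost to poor RNA quality. No channel kept without field for 2 or 8 h was analysed here, so time in the channel and dcEF cannot be told apart. Each tumour type is represented by 1 line, so a difference between the lines is not a difference between tumour types.

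CLK kinases phosphorylate the serine- and arginine-rich (SR) proteins that define exons, and the LUC7-like proteins are relatives of a yeast U1 snRNP subunit that helps to recognise 5′ splice sites. Many genes of this kind keep a share of their polyadenylated transcripts in the nucleus with a few unspliced introns, called detained introns, or splice in a poison exon that sends the transcript to nonsense-mediated decay. CLK1 is a textbook case: its transcripts carry exon 4, skip it, or keep the introns on both sides of it, and only the first form encodes the whole kinase. The annotation gives each transcript a type, and the types used below are protein-coding, nonsense-mediated decay, retained-intron and processed transcript (a spliced transcript with no annotated coding frame).

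The introns that these retained-intron transcripts keep are shown first, because the retained-intron shares of CLK1, CLK4, RSRP1 and RBM39 reported below rest in part on them. In the GENCODE 29 annotation of GRCh38, the most abundant retained-intron transcripts of CLK1 and CLK4 kept the same pair of introns of the most abundant coding transcript, introns 3 and 4, which flank exon 4. CLK1 intron 3 lies at chr2:200860216-200861237 and intron 4 at chr2:200859747-200860124, both on the minus strand. CLK4 intron 3 lies at chr5:178617435-178618555 and intron 4 at chr5:178616949-178617343, also on the minus strand. RSRP1 kept intron 3 (chr1:25243634-25245149, minus strand) and RBM39 kept intron 2 (chr20:35739018-35740823, minus strand). In the lines below, each 5′ splice site has the first 6 intron bases in capitals after 10 exon bases, and each 3′ splice site has the last 3 intron bases in capitals before 10 exon bases.
CLK1 intron 3, 5′ splice site: ttcacatgggGTATGAacgttttt
CLK4 intron 3, 5′ splice site: gtcacgttcgGTATGAttggtttt
CLK1 intron 4, 5′ splice site: agtgcaagatGTATAGaatatttt
CLK4 intron 4, 5′ splice site: agagcaagatGTATAGaatatttt
RSRP1 intron 3, 5′ splice site: aaagcctgaaGTAAGTattctagg
RBM39 intron 2, 5′ splice site: ttacaagaagGTGAGAaaaaacat
CLK1 intron 3, 3′ splice site: cgcccacttgacgtttcCAGaagagtcacc
CLK4 intron 3, 3′ splice site: ctgcccacttgccgttcCAGaagagccacc
CLK1 intron 4, 3′ splice site: gatttatttctctctttTAGatgaaattgt
CLK4 intron 4, 3′ splice site: tttttccctcctcactcTAGatgaaatcgt
RSRP1 intron 3, 3′ splice site: ctttttcttaacctgtcTAGctgtcggaaa
RBM39 intron 2, 3′ splice site: cttctatcaaccctgctTAGgatgagaaca

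CLK1 and CLK4 shared the 6 intron bases at both 5′ splice sites. Exon 4 itself was 91 bases long in both genes, at chr2:200860125-200860215 in CLK1 and chr5:178617344-178617434 in CLK4, and 85 of its 91 bases (93.4%) were identical. The 6 bases that differ are in capitals in the following lines.
CLK1 exon 4: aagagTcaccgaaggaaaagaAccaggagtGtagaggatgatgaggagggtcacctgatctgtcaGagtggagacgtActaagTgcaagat
CLK4 exon 4: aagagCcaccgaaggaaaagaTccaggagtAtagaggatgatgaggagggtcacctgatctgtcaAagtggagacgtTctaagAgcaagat
The most abundant retained-intron transcripts of LUC7L, LUC7L2, LUC7L3 and SREK1 kept no whole intron of the most abundant coding transcript, and intronic sequence (bases outside every coding transcript's exons) made up 29.8%, 68.6%, 6.95% and 29.3% of their lengths. CLK2 and PNISR had no retained-intron transcript in the table, and CLK2 had no nonsense-mediated decay transcript either.

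Libraries held 8341976 to 15610886 estimated counts, of which the 10 genes together took 0.0837% to 0.163%. Retained-intron transcripts of all genes took 2.83% to 2.98% of counts in U87mg at 0 h and 2.71% to 2.98% at 8 h, and 3.02% to 3.29% in DAOY at 0 h against 3.21% to 3.81% at 8 h. Mitochondrial transcripts took 2.92% to 5.70% in DAOY at 0 h and 5.97% to 8.44% at 8 h. DAOY's 8 h libraries thus lay above its controls without overlap in the mitochondrial share, while the retained-intron ranges overlapped, and the part of either in the results below was not tested. Of markers of the labelled tumours, VIM and CD44 were at 885 TPM (a level scaled by library size and by transcript length) or more in every library, and of the other glial markers in U87mg NES was at 5.58 to 9.25 TPM, GFAP, OLIG2 and S100B at 3.11 TPM or less and SOX2 at 0.0858 TPM or less. Of medulloblastoma and granule neuron precursor markers in DAOY, PAX6 was at 17 to 35.1 TPM, ZIC1 at 8.28 to 15.8, ZIC2 at 6.86 to 20.9, GLI2 at 0.817 to 1.81, GLI1 at 0.932 or less, and NEUROD1 and BARHL1 at 0.176 TPM or less. PAX6 was at 19.3 to 35.3 TPM in U87mg too, and SOX2 at 2.93 to 6.92 TPM in DAOY. Of markers of other cell types, PTPRC stayed at or below 0.663 TPM and EPCAM at or below 2.44 TPM, while PECAM1 reached 12.9 TPM in DAOY.

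Per length, RBM39 was the most abundant of the 10 genes without field, at a level of 419.9 TPM ± 31.9 (SD, n = 3) in U87mg and 396.9 ± 75.2 in DAOY. RBM39 is a relative of the 3′ splice site factor U2AF65 and regulates its own transcript. In U87mg it was followed by LUC7L3 (157 TPM ± 29.9) and LUC7L2 (109 ± 7.20), then by RSRP1, PNISR and CLK1, whose means of 72.7, 71.7 and 63.7 TPM differed by less than the SD of RSRP1 (9.40). SREK1 (50.9 TPM ± 3.06) came next, and CLK4 (18.1 ± 1.86), CLK2 (12.1 ± 1.80) and LUC7L (11.6 ± 0.418) were the lowest, with CLK2 and LUC7L closer to each other than the SD of CLK2. In DAOY the same genes lay at the top and at the bottom, but SREK1 at 106 TPM ± 13.8 stood beside LUC7L2 (118 ± 16.4) and LUC7L3 (100.1 ± 2.99), and RSRP1 was at 43.3 ± 3.10 and LUC7L at 28.8 ± 3.42.

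The unexposed lines were compared in a fit of all 18 samples with edgeR's quasi-likelihood test on gene sums, with false discovery rates (FDR) by the Benjamini-Hochberg method over 16482 genes. In CPM (counts scaled by library size, here with TMM factors), LUC7L was at 7.58, 10.7 and 8.03 in U87mg and at 18.5, 19.5 and 23.6 in DAOY, and the groups did not overlap. Its log2 fold change was 1.22 ± 0.17 (SE, FDR 1.01e-05, edgeR). SREK1, a modulator of SR protein activity, was at 108.6, 99.2 and 100.1 CPM in U87mg and at 236, 187 and 166 CPM in DAOY, a log2 fold change of 0.94 ± 0.15 (FDR 5.12e-05, edgeR). RSRP1, a small arginine- and serine-rich protein, was lower in DAOY by a log2 fold change of -0.70 ± 0.25 (FDR 0.0221, edgeR), and LUC7L3 by -0.45 ± 0.16 (FDR 0.0192, edgeR). In all, 4 of the 10 genes passed the FDR of 0.05 where 60.7% of all tested genes did, and 1 (LUC7L) was also at least 2-fold different where 41.2% were. The RSRP1 call was lost when DAOY 0 h replicate 0 or 2 or U87mg 0 h replicate 0 was left out, and the LUC7L3 call without DAOY 0 h replicate 1 or U87mg 0 h replicate 0, with edgeR FDRs up to 0.0557 and 0.0785. In bulk samples such as these, fewer cells of a type and less RNA per cell cannot be told apart.

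After 2 h of dcEF none of the 10 genes passed the FDR in either line, as none of the 14106 genes tested in U87mg (0%) and of the 15396 in DAOY (0%) did. DESeq2 called 0 of the 10 in both lines. By edgeR 3 of the 10 genes had an unadjusted p below 0.05 in U87mg, where 1239 of 14106 genes did. In DAOY 2 of the 10 did, where 424 of 15396 genes did. CLK1 was among the 3 and among the 2. It was at 73.1, 73.0 and 66.4 CPM in U87mg at 0 h and at 69.3, 104.1 and 114.2 CPM at 2 h, and at 58.3, 59.6 and 59.1 CPM in DAOY at 0 h against 74.4, 86.1 and 111.9 CPM at 2 h. The DAOY groups did not overlap and the U87mg groups did. The log2 fold changes were 0.44 ± 0.17 (SE) in U87mg and 0.65 ± 0.20 in DAOY. CLK2 at 2 h lay below all U87mg controls (14.3, 12.5 and 15.6 CPM at 0 h, 10.6, 9.74 and 7.48 at 2 h), as 5.92% of all genes did, LUC7L2 lay above them with a log2 fold change of 0.32 ± 0.12, and RSRP1 in DAOY had a log2 fold change of 0.59 ± 0.26. Of the 10 genes, 1 (LUC7L2) was higher without overlap in U87mg where 5.39% of all genes were, and 1 (CLK1) in DAOY where 2.69% were.

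After 8 h most of the 10 genes were higher in both lines, and DAOY's RSRP1 had the largest fold change among them. The 2 h and 8 h comparisons of a line share its 0 h samples. In U87mg 7 of the 10 genes had 3 samples above all 3 controls, where 7.08% of all genes did, and in DAOY 8 of the 10, where 11.1% did. The median log2 fold change of the 10 genes was 0.32 in U87mg and 0.72 in DAOY, against -0.0012 and -0.01 over all genes tested. In U87mg 3 of the 10 genes passed the FDR, where 1.72% of all genes did. None was also at least 2-fold different, where 0.638% were, and DESeq2 called 0 at both criteria. By edgeR 6 of the 10 had an unadjusted p below 0.05 in U87mg, where 2241 of 14106 genes did. In DAOY 5 of the 10 passed the FDR, where 5.85% did, and 1 passed both criteria, where 3.13% did. Since the genes were chosen with such values known, nothing further is read from these shares.

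**Figure D1:**
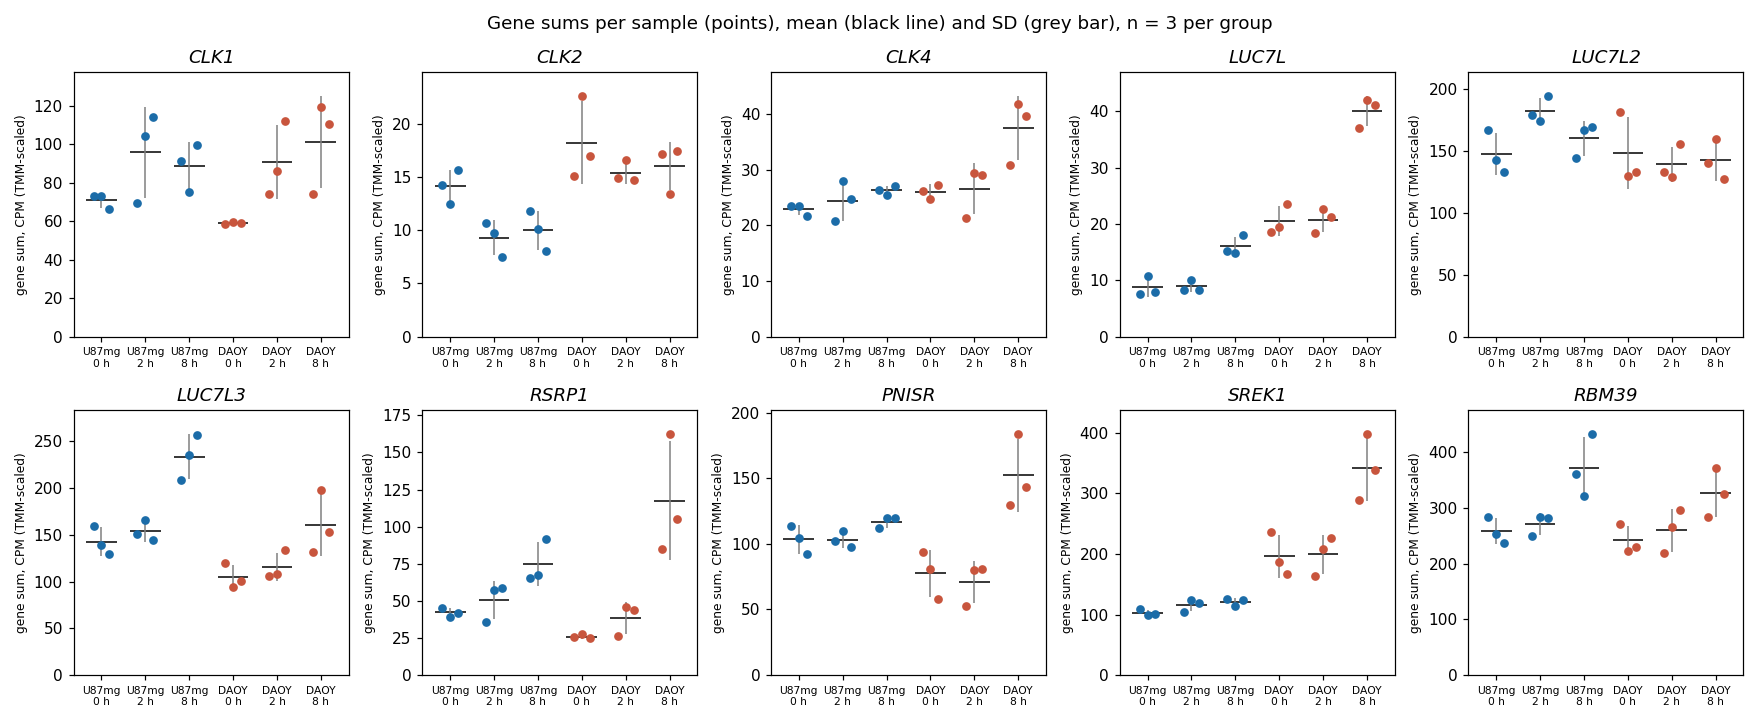
TMM-scaled CPM of each gene sum in all 18 samples (y axis, linear, from 0) by line and hours of dcEF (x axis), with blue for U87mg, red for DAOY, 1 point per sample, black lines for means and grey bars for SDs. RSRP1 in DAOY went from a mean of 25.9 CPM at 0 h to 118 CPM at 8 h, while LUC7L2 stayed between 127 and 194 CPM in all 18 samples.

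Among the kinases, CLK1 in DAOY was at 58.3, 59.6 and 59.1 CPM at 0 h and at 74.1, 119.1 and 110.5 CPM at 8 h, a log2 fold change of 0.80 ± 0.20 (SE, FDR 0.0436, edgeR). In U87mg the 8 h samples at 91.5, 75.3 and 99.6 CPM also lay above the controls, with a log2 fold change of 0.36 ± 0.17 that did not pass (FDR 0.338, edgeR). CLK4, the closest relative of CLK1 in this set, was at 26.2, 24.7 and 27.3 CPM in DAOY at 0 h and at 30.9, 41.8 and 39.6 CPM at 8 h (log2 fold change 0.55 ± 0.18, FDR 0.104, edgeR). CLK2, in contrast, was not higher in either line: its log2 fold changes at 8 h were -0.47 ± 0.21 in U87mg and -0.17 ± 0.21 in DAOY, and the 8.06 to 11.8 CPM of the U87mg samples at 8 h lay below all controls, as 8.94% of all genes did. CLK2 overlaps HCN3 on the opposite strand, and the use of strand in counting is not given in the sources used here, so its low counts are uncertain.

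The LUC7-like genes were not alike. LUC7L in U87mg was at 15.2, 14.8 and 18.03 CPM at 8 h against 7.58 to 10.7 CPM without field, a log2 fold change of 0.89 ± 0.20 (SE, FDR 0.0468, edgeR), and in DAOY at 37.1, 42.0 and 41.1 CPM against 18.5 to 23.6 CPM (0.99 ± 0.17, FDR 0.0134, edgeR). At 2 h both lines were still at their control level, with log2 fold changes of 0.03 ± 0.21 and 0.04 ± 0.17. LUC7L3 in U87mg rose from 159.9, 139.3 and 129 CPM to 208.8, 235 and 257 CPM (0.74 ± 0.13, FDR 0.0225, edgeR), and in DAOY its 8 h samples at 131.7, 198.2 and 153.4 CPM lay above the controls without passing (0.65 ± 0.18, FDR 0.0559, edgeR). LUC7L2 did not follow them: its log2 fold change was 0.15 ± 0.12 in U87mg and -0.03 ± 0.16 in DAOY, and its groups overlapped in both lines. LUC7L2 shares exons with a readthrough transcript of the neighbouring gene, and adding that transcript's counts changed no call.

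RSRP1 showed the largest difference of the set. It was at 25.4, 27.7 and 24.7 CPM in DAOY at 0 h, at 26.0, 45.9 and 43.6 CPM at 2 h and at 85.0, 162.3 and 105.1 CPM at 8 h. The log2 fold change at 8 h was 2.201 ± 0.271 (SE, FDR 0.00567, edgeR), and it ranged from 1.90 to 2.39 when any 1 of the 6 samples was left out, with FDRs of 0.0163 to 0.0354. In U87mg RSRP1 was at 45.3, 39.3 and 42.1 CPM at 0 h and at 65.2, 67.4 and 91.7 CPM at 8 h (0.86 ± 0.19, FDR 0.0482, edgeR). The locus of RSRP1 overlaps RHD and TMEM50A on the opposite strand, and without strand in counting their reads could not be told from its own.

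The remaining genes encode SR-related proteins and RBM39. PNISR, which binds the splicing factor pinin, was at 93.8, 80.7 and 58.2 CPM in DAOY at 0 h and at 129.5, 183.5 and 143.3 CPM at 8 h (log2 fold change 0.997 ± 0.222, SE, just under 2-fold, FDR 0.0300, edgeR), and at 91.96 to 113.5 CPM in U87mg at 0 h against 111.7 to 119.6 CPM (0.21 ± 0.11). SREK1 in DAOY was at 288.9, 397.9 and 339.5 CPM at 8 h against 166 to 236 CPM without field (0.83 ± 0.18, FDR 0.0280, edgeR), and in U87mg the same gene was at 113 to 126 CPM against 99.2 to 108.6 CPM (0.27 ± 0.11). In DAOY its protein-coding transcripts overlapped, at 9.87 to 22.5 CPM at 0 h and 17.0 to 22.8 CPM at 8 h. Its retained-intron transcripts were at 18.8 to 46.5 and then 50.3 to 80.4 CPM. Its nonsense-mediated decay ones were at 17.0 to 25.2 and 61.7 to 74.8, and its processed ones at 116 to 141 and 160 to 220. With only protein-coding rows summed, the DAOY calls of SREK1, PNISR and CLK1 at the FDR were lost. RBM39 had fitted log2 fold changes of 0.56 ± 0.13 in U87mg (FDR 0.0566, edgeR) and 0.46 ± 0.16 in DAOY (FDR 0.108, edgeR), and its 8 h samples lay above all controls in both lines.

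**Figure D2:**
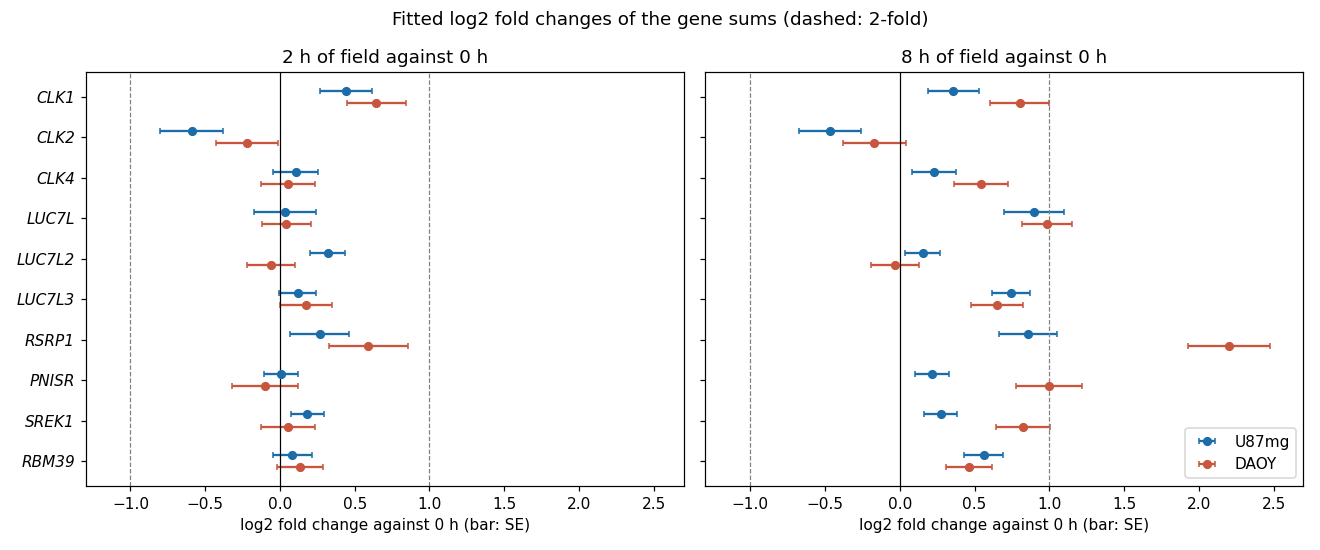
Fitted log2 fold change of each gene sum against 0 h (x axis, with SE bars and dashed lines at 2-fold) for the 10 genes (y axis), after 2 h on the left and 8 h on the right, U87mg in blue and DAOY in red. At 8 h RSRP1 in DAOY stood at 2.201, beyond the dashed line, and CLK2 was below 0 in both lines.

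Of the 8 calls at the FDR alone after 8 h, 1 (RSRP1 in DAOY) held whichever sample was left out. In U87mg the LUC7L and RSRP1 calls were kept only when U87mg 0 h replicate 0 was the sample left out (FDR ranges 0.0434 to 0.255 and 0.0378 to 0.276, edgeR), and the LUC7L3 call was lost without 0 h replicate 1, 0 h replicate 2 or 8 h replicate 2 (0.0130 to 0.136). In DAOY the CLK1 call was kept only without 8 h replicate 0 (0.0322 to 0.162, edgeR), the PNISR call only without 0 h replicate 0 (0.0345 to 0.120), the LUC7L call was lost without 8 h replicate 1 or 2 (up to 0.0682), and the SREK1 call without replicate 1 or 2 of either time (up to 0.114).

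The difference between the lines in the 8 h change was tested as an interaction over all 18 samples. By edgeR 0 of the 10 genes passed the FDR, where 0.0121% of all genes did, and at 2 h 0 passed, where 0% did. At 8 h 3 of the 10 genes had an unadjusted p below 0.05, where 1463 of 16482 genes did. The 3 were RSRP1 (DAOY minus U87mg, log2 1.35 ± 0.35, SE, FDR 0.202), PNISR (0.79 ± 0.26, FDR 0.311) and SREK1 (0.56 ± 0.22, FDR 0.432). The LUC7-like genes had differences of 0.10 ± 0.24 (LUC7L), -0.18 ± 0.20 (LUC7L2) and -0.09 ± 0.22 (LUC7L3). RSRP1 passed with DESeq2, and with edgeR when no filter on low counts was applied, so its call depended on the setting.

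The make-up of the gene sums by transcript type varied widely between the 10 genes. LUC7L2 and LUC7L3 were mostly protein-coding, with mean shares of 86.8% to 95.3% and 83.3% to 93.4% of counts over the 6 conditions. CLK4 (65.2% to 75.6%) and PNISR (64.6% to 77.6%) were protein-coding in the main, CLK1 and RBM39 to 37.4% to 59.3% and 40.9% to 52.1%. SREK1 and RSRP1 had few protein-coding counts: 5.76% to 9.49% for SREK1, whose most abundant row was a processed transcript, and at most 5.50% for RSRP1. Most RSRP1 counts were in retained-intron (36.0% to 47.9%) and nonsense-mediated decay (25.8% to 45.7%) transcripts, and its protein-coding rows were listed at 0 or nearly 0 in all 3 DAOY samples at 0 h and at 2.88, 12.9 and 5.42 CPM at 8 h. CLK2 had only protein-coding and processed rows, and its mean protein-coding share was 15.3% to 51.3% over the 6 conditions. Among single samples at 0 h that share ran from 16.1% to 89.65% in U87mg and from 14.8% to 85.2% in DAOY. Kallisto divides reads between transcripts that share exons, so the shares of all 10 genes are model estimates.

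**Figure D3:**
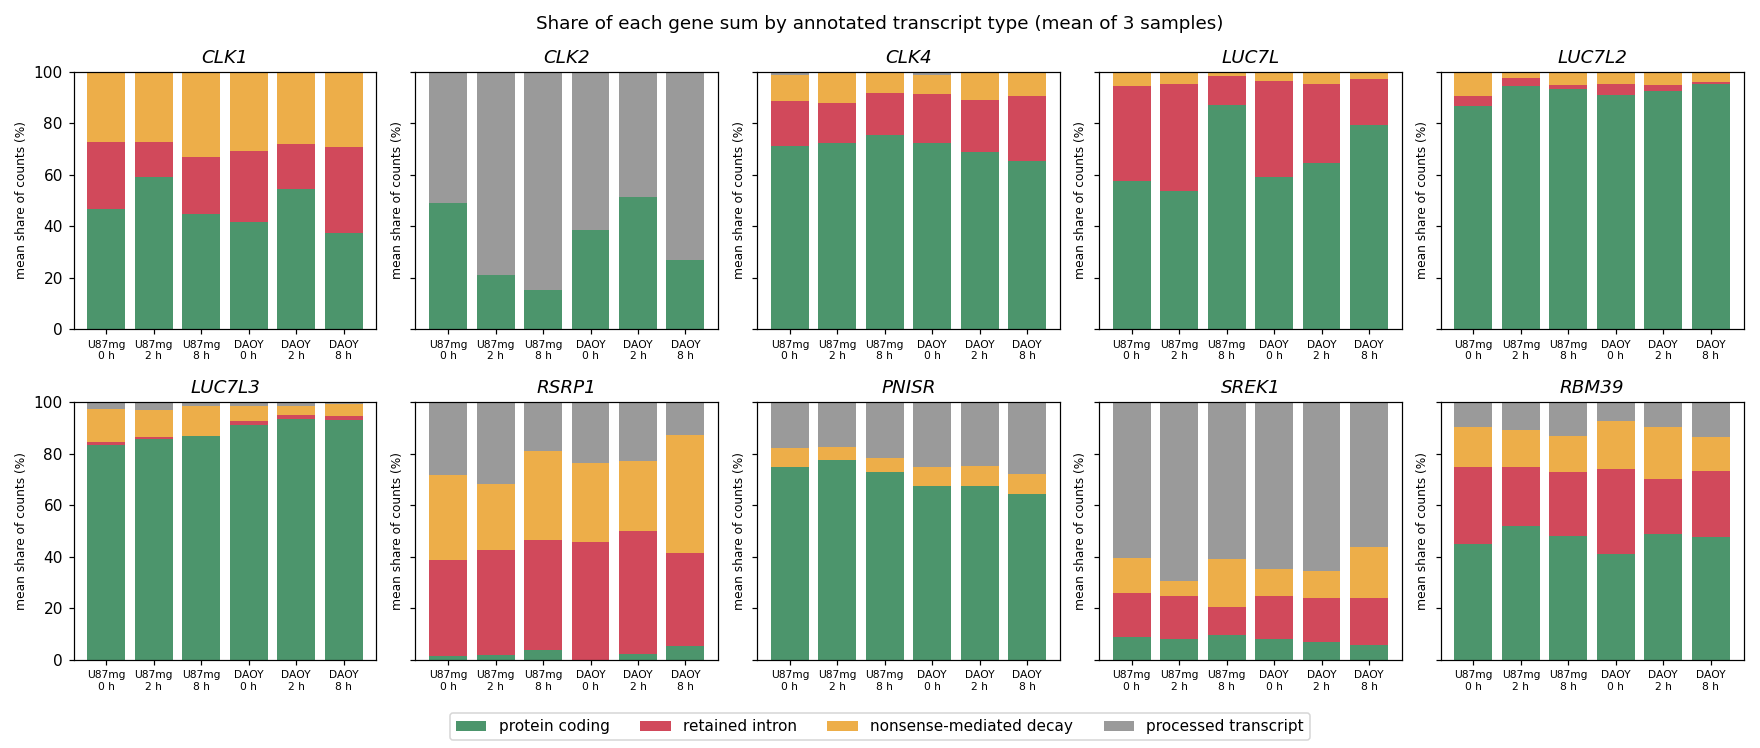
Mean share of each gene's counts (y axis, percent, 3 samples per bar) in protein-coding, retained-intron, nonsense-mediated decay and processed transcripts, for the 6 conditions (x axis) and 10 genes. LUC7L's mean retained-intron share in U87mg was 37.1% at 0 h and 11.2% at 8 h, and its mean protein-coding share 57.5% and 87.1%.

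CLK1's retained-intron share of counts was lower at 2 h in both lines, and per length it was so in U87mg. Of counts, it was 26.3%, 25.6% and 25.9% in U87mg at 0 h, 13.99%, 15.3% and 11.0% at 2 h, and 18.5%, 24.1% and 23.8% at 8 h. In DAOY it was 33.9%, 24.8% and 23.3% at 0 h, 13.8%, 22.7% and 15.5% at 2 h, and 28.1%, 41.5% and 30.0% at 8 h. On counts the 2 h samples lay below all controls in both lines, and at 8 h U87mg's did. In CPM, CLK1's retained-intron transcripts in DAOY overlapped, at 19.75, 14.78 and 13.76 at 0 h and 10.25, 19.58 and 17.33 at 2 h. Its protein-coding transcripts there were at 18.2 to 30.4 CPM and then 46.1 to 52.05 CPM. In U87mg the retained-intron transcripts were lower, at 17.2 to 19.2 CPM and then 9.7 to 15.9 CPM. The protein-coding ones in U87mg overlapped, at 27.2 to 36.5 CPM and 32.03 to 89.2 CPM. As a share of TPM, which weighs transcripts per length, U87mg at 2 h (7.07% to 8.98%) was again below its controls (20.6% to 24.6%). The TPM shares overlapped in DAOY at 2 h (9.42% to 18.97% against 13.5% to 43.3%) and in U87mg at 8 h (14.5% to 26.5%). Of the 8 genes with retained-intron rows, 1 (CLK1) was lower without overlap on counts at 2 h, where 8.48% of all such genes were in U87mg and 5.76% in DAOY. In U87mg 1 (RSRP1) went the other way, at 39.6% to 43.1% against 36.1% to 38.8%, where 4.84% of all such genes were higher. RSRP1's TPM shares overlapped (21.3% to 34.3% against 29.2% to 35.1%). Counts of 1 in 8 are near these background shares, so nothing further is read from them. CLK1's log2 ratio of retained-intron to protein-coding counts, fitted with limma, changed by -1.27 ± 0.38 in U87mg (SE, FDR 0.625) and -1.07 ± 0.45 in DAOY (FDR 0.895), so neither change passed the threshold.

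Sorted by what they do at exon 4, a sorting made after the values were seen, the CLK1 transcripts fell into 3 that splice exon 4 in, 1 that skips it, 2 that keep intron 3 or 4 and 7 with neither junction. Transcripts that keep intron 3 or 4 took 23.9% to 24.2% of CLK1 counts in U87mg at 0 h, 10.7% to 15.3% at 2 h and 17.5% to 21.4% at 8 h. In DAOY they took 22.2% to 27.6%, 11.8% to 20.8% and 26.4% to 36.3%. As shares of counts, the 2 h values thus lay below the 0 h values in both lines. Transcripts with exon 4 spliced in took 51.1% to 60.6% in U87mg at 0 h and 66.0% to 71.4% at 2 h, and in DAOY 33.8% to 46.5% and 47.5% to 70.3%, without overlap in both lines. By 8 h the spliced-in share in DAOY was back at 32.3% to 46.3%. Of the 3 spliced-in transcripts, 1 is typed nonsense-mediated decay, with a mean of 131.4 counts against 354.3 for the main coding one. The spliced-in share is thus not a share of transcripts for the whole kinase. CLK1's protein-coding share of counts overlapped its controls at 2 h in both lines. It was 40.9% to 49.99% at 0 h and 46.2% to 78.1% at 2 h in U87mg, and 31.25% to 51.4% and 46.5% to 61.99% in DAOY. The skipping transcript took 24.8% to 29.3% in DAOY at 0 h but 9.06% to 13.9% at 2 h and 11.0% to 20.2% at 8 h, while in U87mg it took 9.39% to 15.3% at 0 h and its groups overlapped at all times. CLK4, with nearly the same exon, did not show the 2 h pattern: its kept-intron share was 9.62% to 23.4% in U87mg at 0 h and 12.6% to 15.8% at 2 h, and 15.5% to 20.2% in DAOY at 0 h, 13.7% to 20.9% at 2 h and 19.7% to 29.2% at 8 h. No test was run on these shares of counts. They were not worked out per length, and other genes were not sorted in this way, so no background share can be set beside them. Per length, CLK1's retained-intron share in DAOY at 2 h overlapped its controls, as given above.

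**Figure D4:**
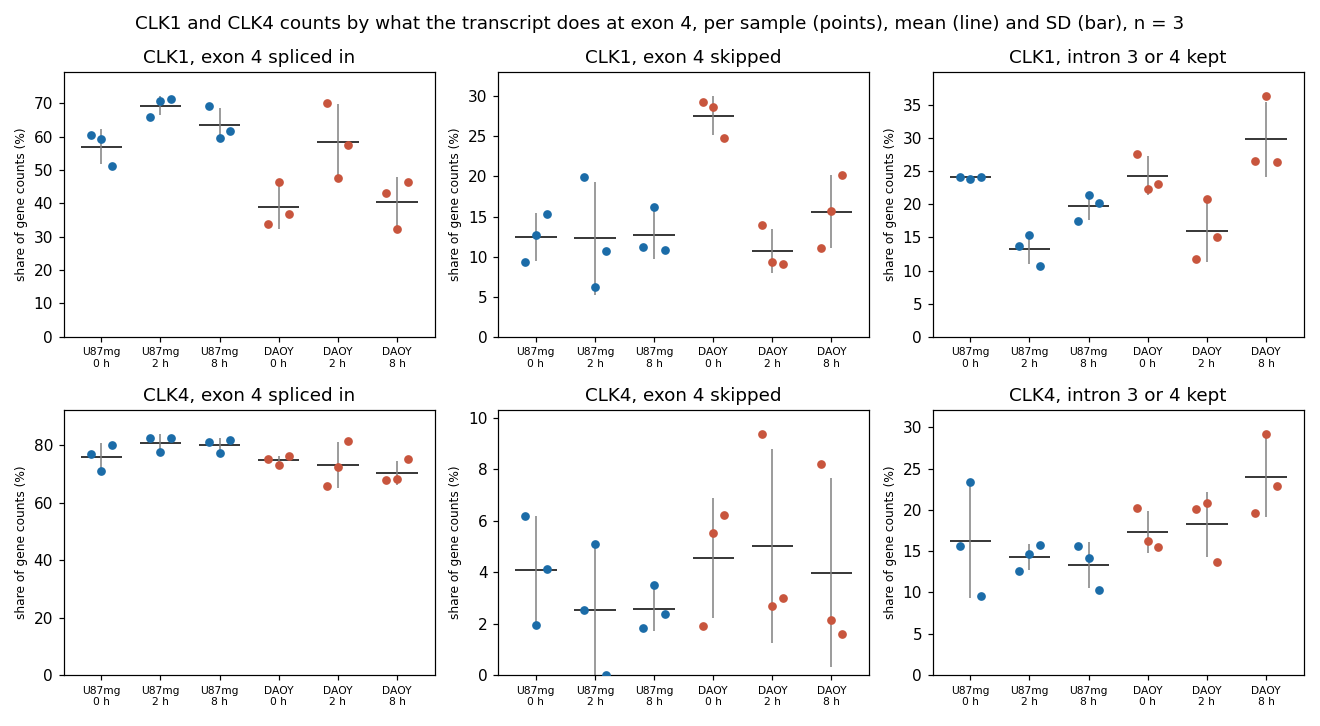
Share of CLK1 (top) and CLK4 (bottom) counts (y axes, percent) in transcripts that splice exon 4 in, skip it, or keep intron 3 or 4, per sample (points), with means (lines) and SDs (bars), by line and hours of dcEF (x axes). CLK1's kept-intron share at 2 h was at most 15.3% in U87mg, below the 23.9% or more of every control.

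LUC7L's retained-intron share of counts was lower in U87mg at 8 h, not at 2 h. In U87mg it was 46.4%, 40.1% and 24.8% at 0 h, 40.02%, 36.2% and 48.2% at 2 h and 10.4%, 10.5% and 12.6% at 8 h, so on counts the 8 h samples lay below all others. As a share of TPM the groups overlapped, with 18.9%, 30.8% and 12.8% at 0 h and 4.92%, 4.44% and 19.7% at 8 h. In CPM, retained-intron transcripts of LUC7L went from 3.53, 4.29 and 1.98 to 1.59, 1.55 and 2.28 and its protein-coding transcripts from 4.09, 4.90 and 5.85 to 13.6, 12.8 and 15.4, so the higher gene sum was in coding transcripts. The ratio of the types changed by -2.29 ± 0.41 on the log2 scale (SE, limma, unadjusted p 4.92e-04, FDR 0.315). In DAOY the protein-coding transcripts of LUC7L were at 8.26, 10.1 and 19.2 CPM at 0 h and at 28.6, 35.1 and 31.6 CPM at 8 h, but the retained-intron shares overlapped (14.8% to 50.9% at 0 h, 14.4% to 20.1% at 8 h), as DAOY 0 h replicate 2 stood at 14.8%.

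The other genes went different ways at 8 h. Retained-intron shares of counts were lower without overlap in 4 of 8 genes in U87mg (CLK1, LUC7L, LUC7L2 and SREK1), where 7.67% of all such genes were, and in 2 of 8 in DAOY (LUC7L2 and RSRP1), where 3.42% were. LUC7L2's share was small, 3.21% to 4.53% in U87mg at 0 h and 0.608% to 2.39% at 8 h, and 1.86% to 6.39% in DAOY against 0.524% to 1.27%. SREK1's was 14.6% to 19.9% in U87mg at 0 h and 8.91% to 13.4% at 8 h, and RSRP1's 39.9% to 53.0% in DAOY at 0 h and 35.1% to 37.5% at 8 h. CLK4 in DAOY was higher without overlap, at 17.1% to 21.9% and then 23.2% to 29.7%, as 18.4% of all such genes were. As a share of TPM the separation held for LUC7L2, at 3.67% to 7.44% against 1.03% to 2.86% in U87mg and 2.26% to 6.52% against 0.476% to 1.03% in DAOY. The TPM shares overlapped for SREK1 in U87mg (11.3% to 22.7% against 8.78% to 13.7%), for RSRP1 in DAOY (26.8% to 31.5% against 19.4% to 28.1%) and for CLK4 in DAOY (12.9% to 18.1% against 14.7% to 24.1%). RBM39's shares overlapped at all times, and DAOY 0 h replicate 0 at 54.5% stood far above the 19.4% and 26.2% of the other 2. In the limma fits of the ratio 0 of the 8 genes passed the FDR in any comparison, where 0% of all genes did in U87mg at 2 h and 0% at 8 h, 0.112% in DAOY at 2 h and 0.0372% at 8 h. The unadjusted p was below 0.05 for 1, 2, 1 and 2 of the 8 genes in those comparisons. Among all such genes it was so for 209 and 204 of 2840 in U87mg and for 146 and 335 of 2689 in DAOY, at 2 h and 8 h. Over all genes tested the median log2 ratio moved by 0.38 in DAOY at 8 h, upward. The median of the 8 genes was -0.93, but 3 of them went up: CLK1 (0.42 ± 0.45), CLK4 (0.58 ± 0.38) and SREK1 (0.61 ± 0.51). RSRP1's value of -5.15 ± 1.42 rests on protein-coding counts of nearly 0 at 0 h. That of LUC7L3 (-1.35 ± 2.02) was smaller than its SE. The 8 genes thus did not share 1 direction.

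**Figure D5:**
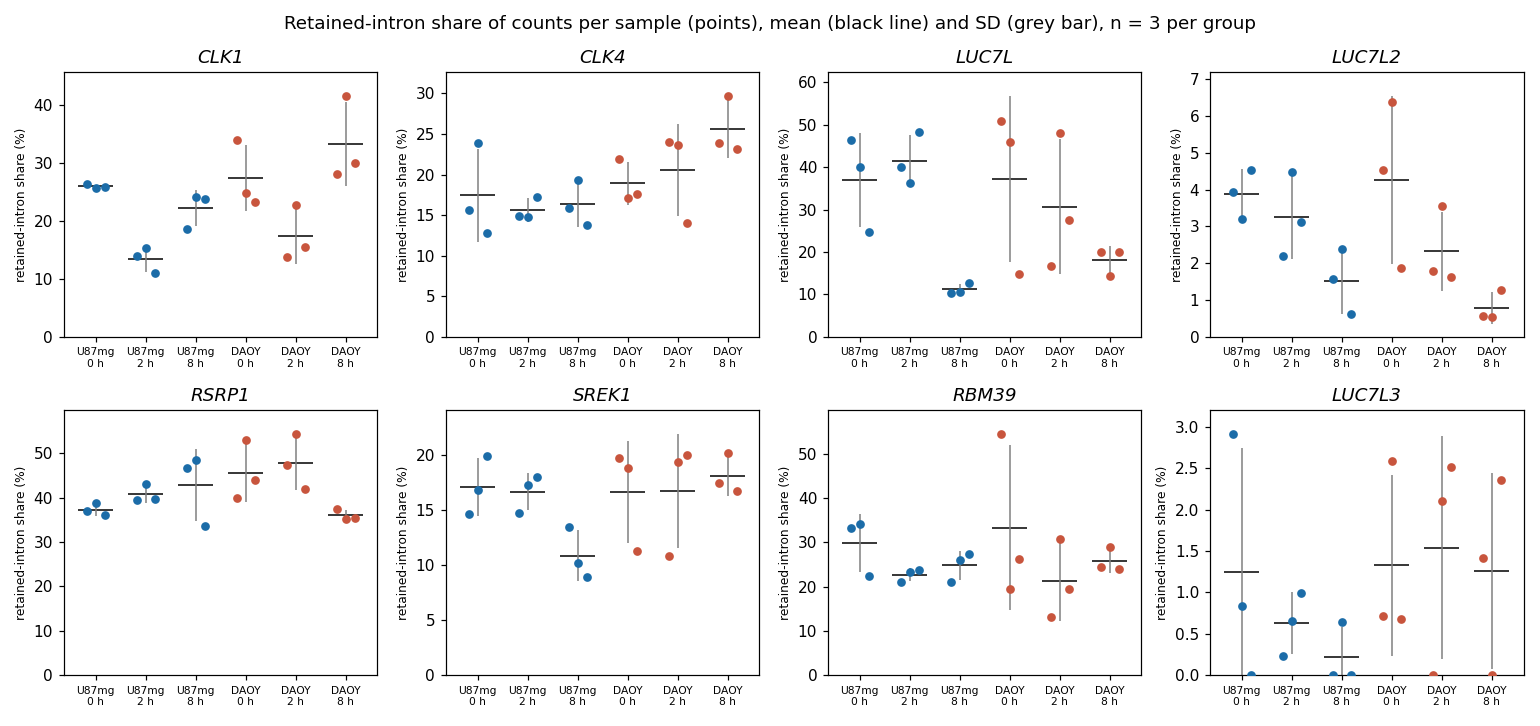
Retained-intron share of counts per sample (points, y axes in percent, each from 0), with means (lines) and SDs (bars), for the 8 genes with such transcripts, by line and hours of dcEF (x axes). LUC7L in U87mg at 8 h sat at 10.4% to 12.6%, and CLK1 at 2 h was lower than its controls in both lines, which held per length in U87mg only.

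Nonsense-mediated decay transcripts of SREK1 took 10.2% to 10.7% of its counts in DAOY at 0 h and 18.8% to 21.4% at 8 h, and 10.5% to 16.3% against 17.7% to 19.9% in U87mg, without overlap in both lines, where 8.69% of all such genes were higher in DAOY and 5.94% in U87mg. In the limma fit the log2 ratio of these to protein-coding counts changed by 1.37 ± 0.34 in DAOY (SE, FDR 0.380) and by 0.33 ± 0.49 in U87mg (FDR 0.993). RSRP1's share in DAOY was 20.03% to 38.2% at 0 h and 40.8% to 50.3% at 8 h, which is also without overlap. RBM39's in DAOY was 16.8% to 21.4% and then 10.0% to 15.5%, lower without overlap where 4.59% of all such genes were. These 4 separations at 8 h were also seen in shares of TPM. At 2 h in U87mg the share of counts was lower without overlap in 3 of 8 genes (LUC7L2, PNISR and SREK1), where 6.13% of all such genes were. For SREK1 that was opposite in direction to 8 h, and its share of TPM was 22.4% to 27.2% at 0 h and 5.32% to 21.1% at 2 h. The ratio passed the FDR in 0 of 8 genes in all 4 comparisons, where 0.138% of all genes did in U87mg at 2 h and 0% in the other 3. The unadjusted p was below 0.05 for 141 and 111 of 2180 genes after 2 and 8 h in U87mg and for 107 and 155 of 2054 in DAOY. Of the 8 genes it was so for 1 and 0 in U87mg and for 0 and 3 in DAOY. Those 3 were SREK1, RBM39 (-0.80 ± 0.35, FDR 0.660, limma) and RSRP1 (-4.20 ± 1.25, FDR 0.509). RSRP1's fitted ratio thus fell while its share was higher, since its protein-coding counts were nearly 0 at 0 h.

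Levels of a few single transcripts follow as a description. They too are Kallisto's estimates, and no test was run on them. The main coding transcript of LUC7L3 went from 39.1 TPM ± 2.71 (SD, n = 3) in U87mg at 0 h to 115.5 ± 16.8 at 8 h, while another coding transcript of the gene was at 21.3 ± 3.38 and 12.1 ± 5.98 TPM. For RSRP1, the main nonsense-mediated decay transcript was at 10.4 TPM ± 3.43 in DAOY at 0 h and at 69.8 ± 29.01 at 8 h, and the main retained-intron transcript, which keeps intron 3, at 5.15 ± 1.79 and 12.3 ± 3.73. A processed transcript of RBM39 was at 60.8 TPM ± 4.62 in U87mg at 0 h and at 120 ± 30.2 at 8 h, and at 49.6 ± 15.1 and 117 ± 12.3 in DAOY. CLK1's retained-intron transcript with introns 3 and 4 was at 6.33 TPM ± 0.414 in DAOY at 0 h and at 12.3 ± 3.28 at 8 h, against 7.14 ± 0.444 and 5.68 ± 0.846 in U87mg.

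Other genes of the same machinery were taken from 6 lists, of which 62 genes were tested. None passed the FDR at 2 h (edgeR, unadjusted p below 0.05 for 8 in U87mg, where 1239 of 14106 genes had one, and for 0 in DAOY, where 424 of 15396 did). At 8 h 6 of 62 passed in U87mg, 5 upward and 1 downward, where 1.72% of all genes passed, and 10 of 62 in DAOY, 9 upward and 1 downward, where 5.85% did. Of 8 SR protein kinases and phosphatase subunits, 1 passed in each line, and it fell: PPP1R10, a nuclear targeting subunit of protein phosphatase 1, had log2 fold changes of -0.78 ± 0.17 in U87mg and -1.13 ± 0.15 in DAOY. Of 11 genes listed with the U1 snRNP, 3 rose in U87mg, PRPF38B (0.79 ± 0.13), RBM25 (0.61 ± 0.13) and NXF1 (0.97 ± 0.18), and 2 rose in DAOY, PRPF38B (1.00 ± 0.17) and PRPF39 (1.33 ± 0.17). NXF1 was in the list but is the mRNA export receptor, not a part of the U1 snRNP. Of 10 genes of 3′ splice site recognition none passed in either line. At 8 h the unadjusted p (edgeR) was below 0.05 for 3 in U87mg, where it was so for 2241 of 14106 genes, and for 2 in DAOY, where it was so for 3502 of 15396.

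Of 15 other genes known for detained or retained introns, none passed in U87mg (unadjusted p below 0.05 for 7 of 15 at 8 h, where 2241 of 14106 genes had one) and 4 rose in DAOY: CCNL2 (log2 fold change 1.47 ± 0.30), DDX17 (1.06 ± 0.16), NKTR (0.77 ± 0.18) and OGT (1.23 ± 0.25). Of 10 nonsense-mediated decay factors, UPF2 rose in both lines, by 0.77 ± 0.15 in U87mg and 0.60 ± 0.15 in DAOY. Of 8 tested genes of the nuclear exosome and its adaptors, ZCCHC8 rose in both (0.71 ± 0.15 and 1.00 ± 0.16) and ZFC3H1 in DAOY (0.95 ± 0.19). The medians of the 6 lists at 8 h ran from 0.09 to 0.40 in U87mg and from 0.12 to 0.64 in DAOY.

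To find genes with a similar profile, log2 CPM was centred on its mean in each line, for 9504 other genes with a mean of at least 10 CPM. Over all 18 samples the closest to the mean profile of the 10 genes were SRSF11 (Pearson r 0.967), FNBP4 (0.965), PRPF38B (0.952), NKTR (0.951) and DDX17 (0.951). These r values leave out differences in level between the lines and describe libraries that share time and depth. All 5 had positive fitted fold changes at 8 h, SRSF11 by 0.49 ± 0.12 in U87mg and 0.90 ± 0.16 in DAOY on the log2 scale.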

How the data were processed

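The authors trimmed single-end reads of stranded poly-A libraries and quantified them with Kallisto 0.43.0 on GENCODE 24 (GRCh38.p5), and the deposited table gives each transcript's estimated counts and TPM in every sample. It also holds p-values, q-values and log2 fold changes of the authors' Sleuth 0.28.1 comparisons, which were not used here. The use of Kallisto's strand option is not given in the sources used here.

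Estimated counts were summed by gene name and by transcript type, rounded, filtered with filterByExpr and scaled by TMM. Each line's 9 samples, and all 18 for comparisons of lines, were fitted with edgeR 4.0.16 (glmQLFit, glmQLFTest) in R 4.3.3. Genes were called at an FDR below 0.05 and a 2-fold change, or at the FDR alone where stated. Ratios of types, log2 with 0.5 counts added, were fitted with limma 3.58.1 for genes with a mean of at least 10 counts in both types. Alternatives were DESeq2 1.42.0, limma on log2 TPM, other count filters, a replicate block, other sets of samples, protein-coding rows only and single replicates left out. Exons and sequences came from GENCODE 29 (GRCh38), which held all 169 rows of the 10 genes. The fits were also run on simulated counts with planted changes. Kallisto's division of reads between transcripts was not simulated, so that run does not bear on how reliable the shares by type are. Figures used matplotlib 3.10.9 in Python 3.11.15.

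The 10 genes, the 6 lists and the tests were chosen with earlier results of these data known. Named were all 10 genes, their leading transcripts, each called gene of the lists and the 5 genes with the most similar profile. In transcripts, up to 3 leading ones were considered and a few are printed. Estimated counts carry no molecular identifiers, so depth speaks for counting error only.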

Additional observations from a re-analysis of the deposited data

How the results depend on the processing

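At both criteria, the count of the 10 genes called in U87mg at 8 h (0) became 3 with the FDR alone and 2 with only protein-coding rows summed (LUC7L and RSRP1). In DAOY at 8 h the count of 1 became 5 with the FDR alone, 3 with DESeq2 (LUC7L, PNISR and RSRP1), 2 with at least 10 counts in every sample (PNISR and RSRP1) and 2 with protein-coding rows only (LUC7L and RSRP1), and ranged from 1 to 2 with 1 replicate left out. Between the lines at 0 h the count of 1 became 4 with the FDR alone and 2 with limma on log2(TPM + 1), and ranged from 1 to 2 with 1 replicate left out. The interaction at 8 h (0) became 1, RSRP1, with DESeq2 and 1 without a filter on low counts. RSRP1 in DAOY at 8 h was called under all of these settings. The cause of these changes was not tested.

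At the FDR alone, the counts at 8 h ran from 0 to 4 in U87mg and from 1 to 4 in DAOY with 1 replicate left out. Under the other settings they ran from 0 (limma on log2 TPM, or the 6 samples alone) to 4 (DESeq2, or no filter) in U87mg, against 3, and from 2 (the 6 samples alone, protein-coding rows only, or the block) to 7 (all 18 samples in 1 fit) in DAOY, against 5. The replicate numbers were not taken as pairing, since not every same-numbered pair of samples had deviations correlated above 0.1. Those correlations ran from -0.143 to 0.209 in U87mg and from -0.18 to 0.396 in DAOY, and between different numbers from -0.187 to 0.213 and from -0.263 to 0.408. In U87mg the 3 same-numbered pairs of 2 h and 8 h samples had 0.209, 0.118 and 0.152. Differently numbered pairs of U87mg 2 h and 8 h samples ran from -0.134 to -0.0113, so pairing of those samples is not excluded. With the number as a replicate block the count at both criteria was 0 in U87mg and 1 in DAOY at 8 h, and at the FDR alone 1 and 2. The sign changed in 2 ratios: SREK1's nonsense-mediated decay ratio in U87mg at 2 h was 0.12 with all noncoding types together, and RSRP1's in DAOY at 8 h was 0.96 with all other transcripts as denominator, an alternative chosen after seeing the data, against -4.20 with its protein-coding counts of nearly 0. Of 298 values of single genes under other settings, 262 kept direction and side of the threshold, and of 240 with 1 replicate left out, 203 did. These totals include values that did not pass in the main fit and still did not, so they do not measure how stable the calls were. How each call at 8 h fared with 1 sample left out is given above.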
